A study of Mus musculus with 4 samples.

Results

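Among the 54532 genes listed for cultured mouse podocytes, 7 that bear on water and osmolyte handling are described here: Aqp1, Aqp11, Chdh, Nfat5, Akr1b3, Sgk1 and Lrrc8a. They were taken by gene name from the count table. Aqp1 and Chdh were chosen by their lower counts in the IL-12 treatment group of these same libraries, so their values are given as a description without a test. The other 5 genes were added for their roles, and 7 of the 7 passed the filter on low counts that left 14095 genes.

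The cells were MPC5, a conditionally immortalized mouse podocyte line, and all 4 libraries came from this line. Cells of the IL-12 treatment group (2 libraries) were kept for 6 h with IL-12 at 400 ng/ml. Those of the control group (2 libraries) received saline. Nothing in the sources used here says that replicates were separate cultures, so p-values measure the spread between these libraries only.

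Cells exposed to hypertonic medium lose water and restore their volume by taking up ions and then by storing small organic osmolytes such as sorbitol, betaine, myo-inositol and taurine. The transcription factor NFAT5 switches on the transporters and enzymes that gather these osmolytes. Cells that swell instead open a volume-regulated anion channel built from LRRC8 proteins. Within the family, AQP1 forms the water channel of the plasma membrane, CHDH makes the first step from choline to betaine in mitochondria, and AKR1B3 is the aldose reductase that makes sorbitol. SGK1 is a kinase that is induced by cell shrinkage and by corticosteroids and acts on ion transport.

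The promoters of Aqp1 and Chdh are shown because these genes had the largest differences of the 7. Sequences are from RefSeq on GRCm38.p6, in which 6 of the 7 genes matched an entry. The first is the 250 bases before the RefSeq start of Aqp1, on the plus strand at chr6:55336049-55336298. The second is the whole interval between the starts of Chdh and of the neighbouring gene Il17rb, which is transcribed away from it. It lies on the plus strand at chr14:30008897-30009022 and uses the starts deposited with the counts. The first RefSeq window of Chdh ends at 30008999, so the last bases of this interval lie past that RefSeq start. The deposited start of Aqp1 (55336432) also differs from its RefSeq start. Capitals mark the GC box GGGCGG on either strand, so that a copy on the minus strand reads as its reverse complement.
Aqp1 upstream: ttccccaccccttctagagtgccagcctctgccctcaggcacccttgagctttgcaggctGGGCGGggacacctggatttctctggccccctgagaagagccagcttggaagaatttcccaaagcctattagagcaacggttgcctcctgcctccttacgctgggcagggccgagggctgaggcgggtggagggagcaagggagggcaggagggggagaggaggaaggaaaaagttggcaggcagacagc
Chdh and Il17rb interval: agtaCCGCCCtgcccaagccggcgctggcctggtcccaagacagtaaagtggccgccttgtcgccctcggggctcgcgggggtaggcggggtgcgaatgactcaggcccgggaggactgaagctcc

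The Aqp1 stretch had a GC content of 62% and 5 CpG, and the Chdh and Il17rb interval had 69.8% and 11 CpG over 126 bases. Over 32851 promoter windows of 250 bases the medians were 52.4% and 6 CpG. The printed stretches held 1 GC box each, a motif found in 32.7% of the windows on either strand. Also searched on both strands were TGGAAA, the core bound by NFAT factors (18.6% of windows), the TATA box TATAAA (12.4%) and the CCAAT box, searched as CCAAT (33.8%). None of these 3 was present in the Aqp1 window or in the first Chdh window. Among the other matched members, TGGAAA was found in 2 of the 6 Sgk1 windows and in none of the Nfat5, Lrrc8a or Aqp11 windows. These letters are a description of the windows only.

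The total counts ranged from 18355379 to 20098012 per library, where 3 counts correspond to 0.149 to 0.163 CPM (the counts of a gene relative to its library total, scaled by TMM), for counting error only. Replicate libraries were not alike to within sampling noise: chi-square over its degrees of freedom came to 2.20 for the control pair and 2.52 for the IL-12 pair. Of 14 podocyte markers, 8 were tested, and Synpo, Actn4, Cd2ap and Kirrel were well counted. The defining podocyte marker Nphs1 had 1 count in total, while Tcf21 and Ptpro had 0. Synpo, a foot process actin regulator, fell by 0.66 on the log2 scale (adjusted p = 3.00e-11, edgeR's quasi-likelihood test over all genes). Of the markers of other cells, 5 of 8 endothelial, 6 of 8 distal nephron, 4 of 8 leukocyte and 6 of 7 erythroid markers had under 10 counts in total. The mesangial list was not near 0, with 2 of 7 markers under 10 counts and a summed level of 75.6 and 79.2 CPM in the control libraries and 83.2 and 89.6 CPM in the IL-12 libraries. In it Pdgfrb, a growth factor receptor gene, had 989, 1029, 1157 and 1208 counts and rose by 0.23 (adjusted p = 0.00956), and the transcription factor gene Gata3 fell by 0.33 (adjusted p = 0.0401, both from edgeR). The part of these markers in the results was not tested.

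Aqp1 was lower in the IL-12 treatment group. Aqp1 (ENSMUSG00000004655) lies on chromosome 6 of GRCm38 from 55336432 to 55348555 on the plus strand. It was counted 1720 and 1719 times without IL-12 and 792 and 790 times with it. At the scaled level these were 90.8 and 91.1 CPM against 40.0 and 43.7 CPM, so both IL-12 libraries lay far below both control libraries. The means were 90.9 ± 0.205 CPM (SD, n = 2) and 41.9 ± 2.57 CPM (SD, n = 2), which is 2.18-fold lower, or a log2 difference of -1.12 (standard error 0.06, 95% confidence interval -1.24 to -1.0). As these are whole-culture libraries, fewer cells that express a gene and less RNA per cell cannot be told apart. The level per length was 34.6 ± 0.120 FPKM (SD, n = 2) in the control group, above 89.0% of the genes tested, and 15.9 ± 0.980 FPKM (SD, n = 2) after IL-12.

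The other aquaporins were far below Aqp1. AQP11 is an intracellular channel of the endoplasmic reticulum. Aqp11 (ENSMUSG00000042797, chromosome 7 from 97724006 to 97738289, minus strand) was counted 19 and 9 times without IL-12 and 19 and 20 times with it, and the groups overlapped. Its levels of 0.740 ± 0.372 CPM and 1.03 ± 0.103 CPM (SD, n = 2 each) gave a log2 difference of 0.47 (standard error 0.44, 95% confidence interval -0.44 to 1.39), which did not pass edgeR's quasi-likelihood test (adjusted p = 0.465). A change within that interval was not detectable at this depth, and the value moved from 0.04 without control replicate 2 to 1.10 without control replicate 1. Of the 12 aquaporins listed, 8 had under 10 counts in total and 4 had 0. Besides Aqp1 and Aqp11, only Aqp5, a channel of secretory epithelia, was tested, with 52, 61, 48 and 35 counts in the order control 1 and 2 and IL-12 1 and 2. Its log2 fold change was -0.45 (standard error 0.25, adjusted p = 0.197 from edgeR).

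Chdh showed the largest difference of the 7 genes. Chdh (ENSMUSG00000015970) lies on chromosome 14 from 30009023 to 30040527 on the plus strand. It was counted 954 and 844 times without IL-12 and 328 and 284 times with it. The scaled levels were 50.4 and 44.7 CPM against 16.6 and 15.7 CPM, and the groups did not overlap. The means of 47.5 ± 3.99 CPM (SD, n = 2) and 16.1 ± 0.624 CPM (SD, n = 2) gave a 2.94-fold lower level, or a log2 difference of -1.56 (standard error 0.08, 95% confidence interval -1.73 to -1.38). Per length, Chdh was a middling gene, with 7.65 ± 0.632 FPKM (SD, n = 2) in the control group, above 54.6% of the genes tested, and 2.60 ± 0.100 FPKM (SD, n = 2) after IL-12. The last part of Chdh shares 589 exon bases with Cacna1d on the opposite strand, which had 18 counts in all libraries against 2410 for Chdh.

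Both genes are known to be abundant in the proximal tubule. Among 12 proximal tubule markers, 10 had under 10 counts in total and 7 of these had 0, including Slc34a1, Slc5a2 and Hnf4a. The summed level of the list was 660 and 634 CPM in the control libraries and 518 and 560 CPM in the IL-12 libraries, nearly all of it from Lrp2, the endocytic receptor megalin. Lrp2 fell by 0.27 on the log2 scale (standard error 0.03, adjusted p = 8.70e-06 from edgeR), and Cubn, its partner cubilin, had 30, 43, 34 and 44 counts (adjusted p = 0.850). The part of Lrp2 in the values of Aqp1 and Chdh was not tested.

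Of the 5 members that were not selected on these libraries, Nfat5 fell, Sgk1 rose, and Akr1b3, Lrrc8a and Aqp11 did not pass the test. Over all genes, 30.5% passed at an adjusted p below 0.05, 16.1% higher and 14.4% lower, and in 62.9% the 2 groups did not overlap. Against those shares, 2 of 5 members passed and the same 2 had groups without overlap, a count too small to set these members apart from other genes. A level that was lower by more than 2-fold and past the test was found in 0.752% of all genes, a contrast that served to choose Aqp1 and Chdh.

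**Figure D1:**
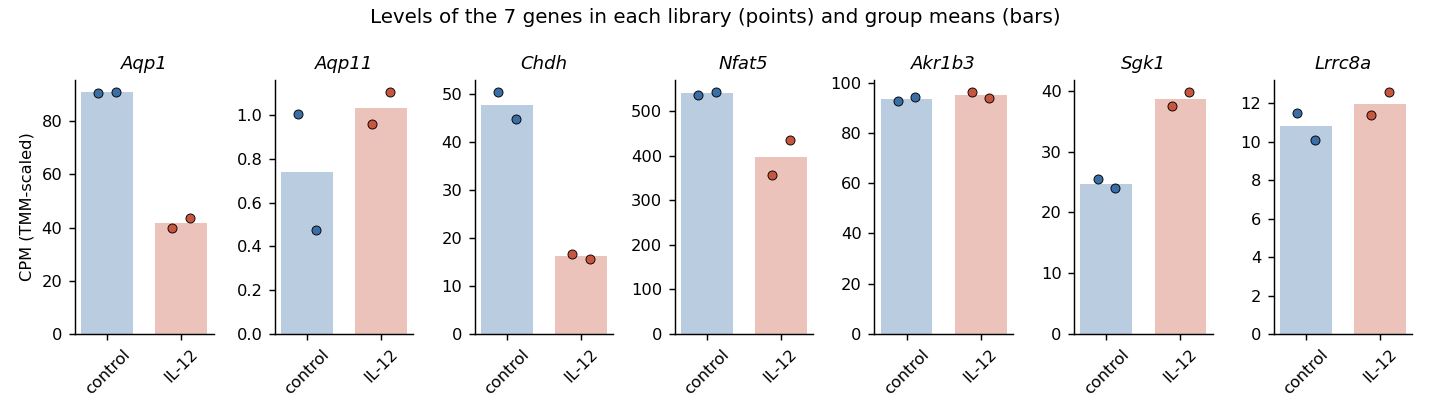
Level of each of the 7 genes in each library, in CPM scaled by TMM, with a point for each library and a bar from 0 up to the group mean (n = 2) and an axis of its own for each gene. Aqp1, Chdh and Nfat5 were lower in every IL-12 library than in any control library, Sgk1 was higher, and the groups of Akr1b3, Lrrc8a and Aqp11 overlapped.

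Per gene length, the order of the 7 levels in the control group was Aqp1 (34.6 ± 0.120 FPKM), Nfat5 (29.4 ± 0.308), Akr1b3 (11.2 ± 0.128), Chdh (7.65 ± 0.632), Sgk1 (5.04 ± 0.217), Lrrc8a (2.51 ± 0.225) and Aqp11 (0.0785 ± 0.0394), each as mean and SD over 2 libraries. No neighbours in that order overlapped between libraries. After IL-12 the order was Nfat5 (21.6 ± 3.08 FPKM), Aqp1 (15.9 ± 0.980), Akr1b3 (11.4 ± 0.209), Sgk1 (7.90 ± 0.332), Lrrc8a (2.79 ± 0.202), Chdh (2.60 ± 0.100) and Aqp11 (0.110 ± 0.0109). Aqp1 thus stood below Nfat5 and Chdh below Sgk1, while Chdh and Lrrc8a overlapped between libraries.

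Nfat5, the transcription factor of the hypertonic response, fell by less than Aqp1 and Chdh. Nfat5 (ENSMUSG00000003847, chromosome 8 from 107293470 to 107379517, plus strand) was counted 10170 and 10265 times without IL-12 and 7054 and 7898 times with it. The scaled levels were 537 and 544 CPM against 357 and 437 CPM, and the IL-12 libraries differed from each other more than the control libraries did. The log2 fold change was -0.45 (standard error 0.06, 95% confidence interval -0.57 to -0.33), past edgeR's quasi-likelihood test (adjusted p = 5.89e-06). Without IL-12 replicate 1 it was -0.31, and without IL-12 replicate 2 it was -0.60, both past the test. Of the other NFAT factors, which answer to calcium through calcineurin, Nfatc1, Nfatc3 and Nfatc4 stood at -0.09, 0.02 and 0.14 on the log2 scale (edgeR, adjusted p = 0.467, 0.741 and 0.678).

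Of 10 genes known to be raised by hypertonicity through NFAT5, 7 were tested, of which 5 fell, 0 rose and 2 did not pass, where 14.4% of all genes tested fell and 16.1% rose. Their median log2 fold change was -0.28, against -0.0022 over all genes tested. Slc5a3, the sodium-coupled myo-inositol transporter, fell by 0.28 on the log2 scale (standard error 0.06, adjusted p = 0.0017). Slc38a2, a neutral amino acid transporter, also fell by 0.28 (standard error 0.03, adjusted p = 2.14e-06), and Pnpla6, which releases the osmolyte glycerophosphocholine, by 0.36 (standard error 0.05, adjusted p = 2.18e-05). The chaperones Hspa1b and Hspa4l fell by 0.57 and 0.13 (standard errors 0.10 and 0.04, adjusted p = 0.000221 and 0.0319). The chaperone Hspa1b is nearly identical in sequence to Hspa1a, which had 2, 0, 2 and 2 counts, so its reads may not be all its own. The 2 that did not pass were the taurine transporter Slc6a6, at 0.01 on the log2 scale (adjusted p = 0.773), and Akr1b3. The betaine transporter Slc6a12 and the urea transporter Slc14a2 were listed with 0 counts. Without IL-12 replicate 1 the number that fell was 3, as Slc5a3 and Hspa4l no longer passed (adjusted p = 0.0848 and 0.166). Hspa4l also did not pass without control replicate 1 (adjusted p = 0.297) or IL-12 replicate 2 (0.0847). Slc5a3 also shares 159 exon bases with Mrps6, which had 3435 counts against 5893 for Slc5a3.

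Akr1b3 did not pass the test, while the enzymes that follow it in the sorbitol pathway did. Akr1b3 (ENSMUSG00000001642, chromosome 6 from 34302434 to 34317478, minus strand) was counted 1759 and 1778 times without IL-12 and 1906 and 1698 times with it. The scaled levels were 92.9 and 94.2 CPM against 96.3 and 93.9 CPM, and the groups overlapped. The log2 fold change was 0.02 (standard error 0.05, adjusted p = 0.749 from edgeR), with a 95% confidence interval of -0.07 to 0.12. Sord, the sorbitol dehydrogenase that turns sorbitol into fructose, fell from 16.7 CPM to 9.86 CPM (log2 fold change -0.77, standard error 0.13, adjusted p = 0.000106). Khk, the kinase of fructose, fell from 10.5 CPM to 6.42 CPM (log2 fold change -0.71, standard error 0.14, adjusted p = 0.000762). The other 3 reductases tested were not past the test: Akr1b8 at 0.20 (adjusted p = 0.0940), Akr1b10 at -0.14 (adjusted p = 0.220) and Akr1a1 at -0.03 (adjusted p = 0.579) on the log2 scale. Akr1b8 passed without control replicate 1, at 0.34 (adjusted p = 0.00863), and stood at 0.079 without control replicate 2. Akr1b3, Akr1b8 and Akr1b10 are related in sequence, and how the counting treated reads that match several genes is not given in the sources used here.

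Besides Chdh, the choline and betaine list held 11 tested genes, of which 2 fell, 0 rose and 9 did not pass. Their median log2 fold change was -0.06, and among all genes tested 14.4% fell and 16.1% rose. The falls are too few to set this list apart from other genes. Chpt1, a choline phosphotransferase that makes phosphatidylcholine, fell by 0.23 on the log2 scale (standard error 0.05, adjusted p = 0.00153 from edgeR). The choline transporter Slc44a2 fell by 0.12 (standard error 0.04, adjusted p = 0.0140), and it did not pass when any of the 4 libraries was left out (adjusted p = 0.0548 to 0.111). Aldh7a1, which oxidizes betaine aldehyde, the product of CHDH, showed a log2 difference of -0.08 (standard error 0.04, adjusted p = 0.188) and shares 300 exon bases with Phax on the opposite strand. Sardh, the sarcosine dehydrogenase, was at 0.13 (adjusted p = 0.0795), and the choline kinase gene Chka was at 0.03 (adjusted p = 0.632). Bhmt, which uses betaine in the liver, and Dmgdh, which uses the product, had 0 counts in these libraries. So did Bhmt2 and the high-affinity choline transporter Slc5a7.

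**Figure D2:**
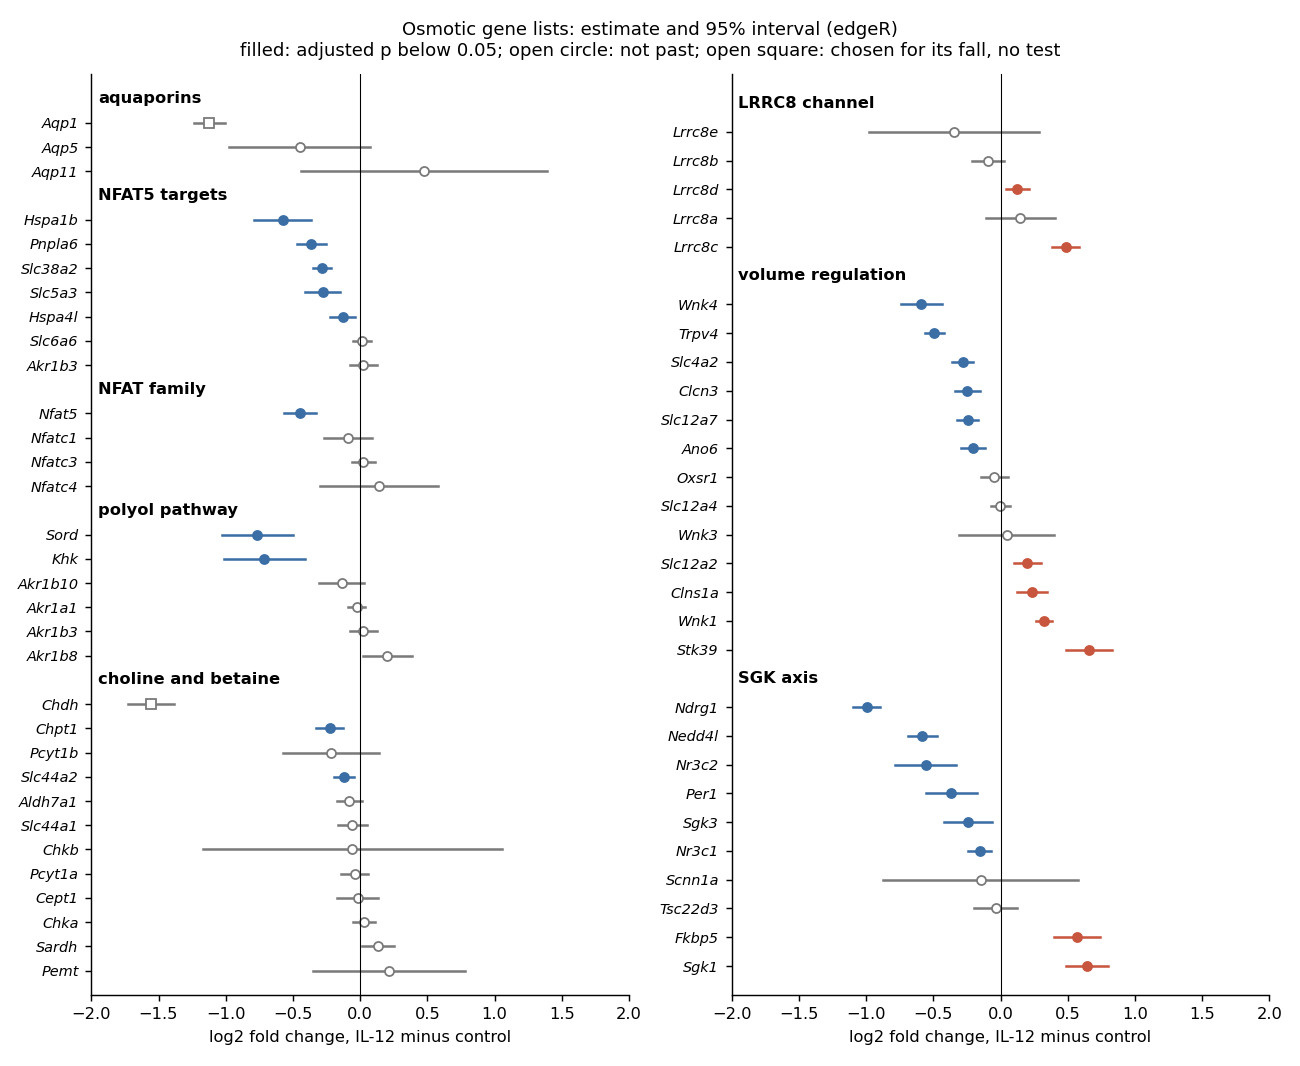
Log2 fold change (IL-12 treatment group minus control group, edgeR) of the tested genes reported here from the osmotic gene lists, with its 95% confidence interval, filled points for genes past an adjusted p of 0.05 and open squares for Aqp1 and Chdh, which were not tested. In the NFAT5 target list 5 of 7 tested genes fell and 0 rose, while in the LRRC8 list 2 of 5 rose and 0 fell, beside 14.4% lower and 16.1% higher among all genes tested.

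Sgk1 rose. Sgk1 (ENSMUSG00000019970, chromosome 10 from 21882184 to 21999903, plus strand) was counted 483 and 452 times without IL-12 and 743 and 721 times with it. The mean level was 24.7 ± 1.09 CPM in the control group and 38.7 ± 1.62 CPM after IL-12 (SD, n = 2 each), and both IL-12 libraries lay above both control libraries. The rise was 1.56-fold, or a log2 difference of 0.65 (standard error 0.07, 95% confidence interval 0.49 to 0.80, adjusted p = 1.98e-06 from edgeR's quasi-likelihood test).

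Of the 10 tested genes of the SGK list, which includes Sgk1, 2 rose, 6 fell and 2 did not pass. Their median log2 fold change was -0.20, and among all genes tested 16.1% rose and 14.4% fell. Besides Sgk1, Fkbp5, a chaperone partner of the glucocorticoid receptor and itself induced by glucocorticoid, rose by 0.57 (standard error 0.08, adjusted p = 2.53e-05 from edgeR). Ndrg1, a known substrate of SGK1, had the largest fall of the list, from 136 ± 3.15 CPM to 68.3 ± 1.02 CPM (SD, n = 2 each), or -0.995 on the log2 scale (standard error 0.05, adjusted p = 1.88e-11). Nedd4l, the ubiquitin ligase that SGK1 phosphorylates, fell by 0.58 (standard error 0.05, adjusted p = 7.08e-08). The receptors that bind corticosteroids fell too, the mineralocorticoid receptor gene Nr3c2 by 0.56 (adjusted p = 0.000528) and the glucocorticoid receptor gene Nr3c1 by 0.16 (adjusted p = 0.00576). Per1, which is induced by glucocorticoid and by the circadian clock, fell by 0.37 (adjusted p = 0.00423), and the related kinase gene Sgk3 by 0.24 (adjusted p = 0.0370). Tsc22d3, another glucocorticoid-induced gene, showed a log2 difference of -0.04 (adjusted p = 0.776). The sodium channel subunit Scnn1a had 27, 24, 22 and 24 counts (adjusted p = 0.797), and Scnn1g had 0. Without IL-12 replicate 1 the list's falls numbered 3, as Per1, Nr3c1 and Sgk3 did not pass (adjusted p = 0.143, 0.0683 and 0.195), and Nr3c1 did not without control replicate 2 (0.0679). Sgk3 did not pass without any of the other libraries either (adjusted p = 0.0812 to 0.133).

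Lrrc8a, the obligatory subunit of the volume-regulated anion channel, did not pass the test, while 2 other subunits rose. Lrrc8a (ENSMUSG00000007476, chromosome 2 from 30237715 to 30263790, plus strand) was counted 218 and 191 times without IL-12 and 225 and 228 times with it, at 11.5 and 10.1 CPM against 11.4 and 12.6 CPM. The groups overlapped, and the log2 fold change was 0.15 (standard error 0.12, 95% confidence interval -0.11 to 0.40, adjusted p = 0.406 from edgeR). It shares exon bases with Gm28035 (1 count) and with the antisense gene 1700084E18Rik (79 counts against 862), which the counting could not separate if it did not use strand. Lrrc8c rose by 0.48 (standard error 0.05, adjusted p = 2.95e-07) and Lrrc8d by 0.12 (standard error 0.04, adjusted p = 0.0254). The call of Lrrc8d was lost without control replicate 1 (adjusted p = 0.0640), without control replicate 2 (0.140), without IL-12 replicate 1 (0.193) and with scaling by total counts only (0.133). Lrrc8b and Lrrc8e had log2 fold changes of -0.09 and -0.34 (adjusted p = 0.229 and 0.435).

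Among 15 tested genes of ion transport in cell volume regulation, 4 rose, 7 fell and 4 did not pass, beside 16.1% and 14.4% of all genes tested that rose and fell. The kinases moved apart. Stk39, which activates sodium-potassium-chloride cotransport, rose by 0.66 (standard error 0.08, adjusted p = 5.76e-06) and Wnk1, the kinase upstream of it, by 0.32 (standard error 0.03, adjusted p = 5.36e-08), while Wnk4 fell by 0.59 (standard error 0.07, adjusted p = 4.52e-06). Slc12a2, the cotransporter NKCC1 through which shrunken cells take up salt, rose by 0.20 (adjusted p = 0.00375), and Clns1a rose by 0.23 (adjusted p = 0.00210). Slc12a7, a potassium-chloride cotransporter through which swollen cells lose salt, fell by 0.24 (adjusted p = 5.37e-05), while the related Slc12a4 was at -0.00084 (adjusted p = 0.991). Trpv4, a calcium channel opened by swelling, fell by 0.49 (standard error 0.03, adjusted p = 3.99e-09), and the anion exchanger Slc4a2 by 0.28 (adjusted p = 9.76e-06). Clcn3 and Ano6, of chloride transport and lipid scrambling, fell by 0.25 and 0.21 (adjusted p = 0.000225 and 0.000972). Slc12a2 did not pass without control replicate 2 (adjusted p = 0.0844) or without IL-12 replicate 2 (0.0584). Slc4a2 shares 1141 exon bases with Fastk.

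Taking the 8 osmotic lists as 86 distinct genes without Aqp1 and Chdh, 59 were tested, 8 rose, 23 fell and 28 did not pass. The shares over all genes tested were 16.1% higher and 14.4% lower. None of the 59 changed by more than 2-fold, and their median log2 fold change was -0.09. Of the genes that passed, 25.8% rose in these lists and 52.8% among all genes tested. With scaling by total counts only, that share was 40.5% among all genes tested, and in the lists 7 rose and 25 fell. The lists overlap in genes and were put together with results of these data known, so these counts are a description.

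**Figure D3:**
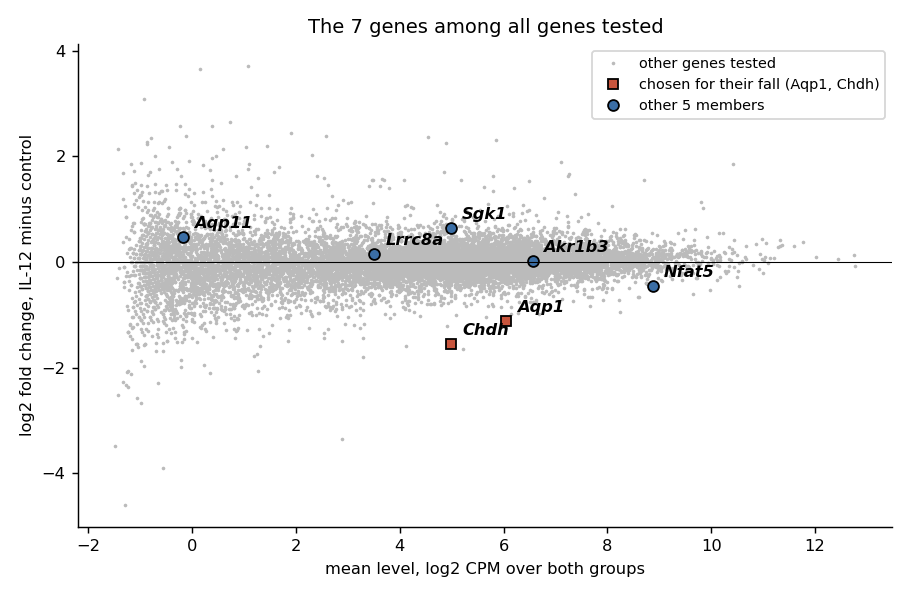
Log2 fold change against mean level (log2 CPM) for all 14095 genes tested, with the 7 members named. Aqp1 and Chdh, which were chosen on this contrast, lie below -1, a change of 2-fold, Nfat5 lies below 0, Sgk1 above 0, and Akr1b3, Lrrc8a and Aqp11 have 95% confidence intervals that include 0.

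The genes around Chdh and Aqp1 were examined next. By the deposited coordinates, Chdh starts 126 bases from the start of Il17rb, which codes for a receptor subunit of the cytokine IL-25. Il17rb runs in the opposite direction (chromosome 14 from 29996135 to 30008896, minus strand), and the interval between the starts is printed above. Il17rb was counted 308 and 269 times without IL-12 and 82 and 84 times with it, again without overlap. It fell from 15.3 ± 1.42 CPM to 4.39 ± 0.352 CPM (SD, n = 2 each), which is 3.47-fold lower, or a log2 difference of -1.80 (standard error 0.14, 95% confidence interval -2.09 to -1.50, adjusted p = 1.37e-08 from edgeR). This interval overlaps that of Chdh, and the difference between the 2 genes was not tested. Il17rb shares 141 exon bases with Actr8, an actin-related protein gene on the opposite strand that had 3330 counts against 743. Actr8 fell by 0.22 (standard error 0.06, adjusted p = 0.0127), a call that was lost without control replicate 2 (adjusted p = 0.0999) or without IL-12 replicate 1 (0.142).

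Farther from the Chdh start the differences were smaller or rested on few counts. Selenok, a selenoprotein gene of the endoplasmic reticulum, showed a log2 difference of -0.11 (standard error 0.05, adjusted p = 0.117 from edgeR), and it passed without control replicate 2, at -0.18 (adjusted p = 0.0311). The noncoding gene Gm47414 had 7, 11, 12 and 12 counts (log2 fold change 0.41, adjusted p = 0.607). Gm18760, a processed pseudogene inside an intron of Chdh on the opposite strand, had 14, 12, 2 and 3 counts, which gave -2.32 on the log2 scale (standard error 0.67, adjusted p = 0.0125). Its reads cannot be told from those of the Chdh intron if strand was not used, and its call was lost without control replicate 1, IL-12 replicate 1 or IL-12 replicate 2 (adjusted p = 0.0922, 0.125 and 0.0642). Near Aqp1, only Mindy4, a deubiquitinase gene, was tested, with 370, 354, 361 and 361 counts and a log2 difference of -0.0047 (standard error 0.09, adjusted p = 0.978). Within 100 kb, 3 of the 5 tested neighbours of Chdh fell (Il17rb, Actr8 and Gm18760, the last with reads that may be those of Chdh) and 0 of 1 tested neighbour of Aqp1 passed, where 14.4% of all genes fell. The count of 3 became 1 without IL-12 replicate 1 and 1 with the DESeq2 Wald test, which gave Gm18760 no adjusted p.

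**Figure D4:**
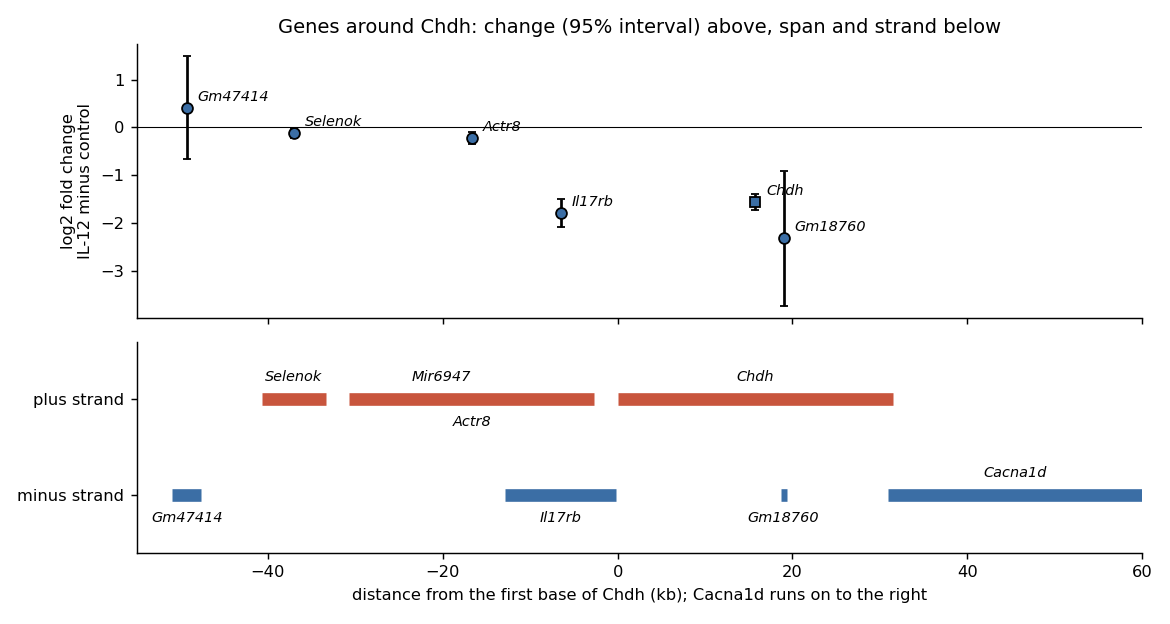
Log2 fold change of the genes within 100 kb of Chdh against distance from the Chdh start in kb, with each tested gene's point at the middle of its span and its 95% confidence interval as a bar, above the spans of the genes on each strand. Chdh and Il17rb, whose starts are 126 bases apart, lie at -1.56 and -1.80, while Actr8 and Selenok lie at -0.22 and -0.11.

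Pairs of this kind were counted over the genome. There were 602 pairs of tested protein-coding genes that start within 1000 bases of each other and run apart. In 17 of them (2.82%) both genes fell, in 29 both rose and in 19 they changed in opposite directions. Counted without regard to the test, both genes were lower by more than 2-fold in 2 pairs and higher by more than 2-fold in 1 pair. Of the 2 lower pairs, 1 was Chdh with Il17rb and the other was Ifit1 with Ifit1bl2, at 127 bases. The log2 fold changes of Ifit1 and Ifit1bl2 were -1.06 and -1.12. Ifit genes are close copies of each other, so the values of that pair are uncertain, and the Chdh pair was found from a member chosen for its fall.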

How the data were processed

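RNA-sequencing counts of 2 control and 2 IL-12 libraries were analysed. The authors deposited raw counts per gene, not normalized, and FPKM values made from the same counts. Per the submitters' processing notes, HISAT2, StringTie and mm9 were used, without versions, but the deposited coordinates equal GENCODE M21 (GRCm38) for 98.3% of 54495 shared genes, so GRCm38 is given. Whether strand was used is not given in the sources used here. All sample columns were mapped by name.

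Counts were filtered (filterByExpr, minimum 10 counts and 15 in total), scaled by TMM and tested by edgeR 4.0.16 (quasi-likelihood, no block, R 4.3.3) with Benjamini-Hochberg adjustment over 14095 genes. Past the test means an adjusted p below 0.05, and rose or fell is written of such genes. The standard error of a log2 fold change was derived from its F statistic (size over root F), and intervals use the t distribution. Fold changes are on the log2 scale, IL-12 minus control. With 2 libraries a group, an exact two-sided permutation test cannot go below 0.333. The same steps were tested on simulated data.

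The members and lists were chosen with earlier results of these data known. Named genes are the 7 members, in each list the genes past the test and up to 6 or 8 with the smallest p, tested genes within 100 kb of Aqp1 or Chdh, and the 5 nearest patterns to each. Shared-exon partners, untested genes and the Ifit pair are named besides. Some genes that this rule or the marker lists pick are not reported here by name, though the list counts include them. Alternatives were other scalings (DESeq2 1.42.0 size factors, upper quartile, total counts), the DESeq2 Wald test, limma 3.58.1 voom, 2 other filters, a replicate block and each library left out. Plots were made with matplotlib 3.10.9 (Python 3.11.15).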

Additional observations from a re-analysis of the deposited data

How the results depend on the processing

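Over the 12 alternative settings, no member, osmotic list gene or neighbour of Aqp1 and Chdh that was past the test changed direction. Direction was not compared for the other genes tested. Akr1b3, Slc6a6, Nfatc3, Chka, Chkb, Cept1, Wnk3, Slc12a4 and Mindy4 passed in no setting and changed sign in some. Akr1b3 went from 0.02 to -0.02 with total counts only. These genes lay near 0 with the main settings, but Chkb ranged from -0.67 to 1.05 and Wnk3 from -0.22 to 0.38. The log2 fold change ranged from -1.18 to -1.06 for Aqp1, from -1.64 to -1.47 for Chdh, from -0.60 to -0.31 for Nfat5 and from 0.60 to 0.69 for Sgk1, and the latter 2 passed in all 12. With the DESeq2 Wald test 2705 genes passed, 1492 higher and 1213 lower, 103 of them over 2-fold, against 4297, 2267, 2030 and 227 with edgeR, and 1 of the genes near Aqp1 and Chdh passed, against 3. That test gave 2187 of the 14095 genes no adjusted p, Gm18760 among them. The cause of the lower numbers was not tested. Leaving out each library in turn, the numbers were 2528 to 3722 past the test, 1404 to 2010 higher, 1124 to 1712 lower, 144 to 254 over 2-fold and 1 to 3 near Aqp1 and Chdh, the lowest each time without IL-12 replicate 1, and Aqp1 lay at -1.18 to -1.06. An arm with 1 library is then assumed to vary like the other. Without a filter on low counts 3156 genes passed. Hspa4l and Sgk3 also did not pass with the DESeq2 Wald test (adjusted p = 0.121 and 0.191) or without that filter (0.0788 and 0.0808), and Actr8 and Lrrc8d did not with the Wald test (0.0911 and 0.0972). With total counts only, Aldh7a1 and Selenok passed (adjusted p = 0.0451 and 0.0339).

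The replicate numbers come from the labels only, and across genes the deviations of same-numbered libraries from their group means had a correlation of -0.03. With the replicate block 4341 genes passed, 2272 higher and 2069 lower, 241 over 2-fold, and Nfat5 and Sgk1 stood at -0.45 and 0.65. Depth limits Aqp11, whose 95% confidence interval spans -0.44 to 1.39 on the log2 scale, and the 8 aquaporins with under 10 counts in total, which were not tested.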

Other observations

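The genes of at least 1 CPM whose pattern over the 4 libraries lay nearest to those of Aqp1 and Chdh were named by the distance of their log2 CPM, each centred on its own mean, among 12777 genes. For Aqp1 they were Gpr146 (distance 0.070), Klhl14 (0.151), Cys1 (0.154), Plin4 (0.164) and Abi3bp (0.169), with log2 fold changes of -1.06, -1.20, -0.98, -1.25 and -0.98. Gpr146, an orphan receptor gene, had 19.0 and 19.2 CPM in the control libraries and 8.85 and 9.45 CPM in the IL-12 libraries. For Chdh they were Ifit3b (0.167), Sox6 (0.201), A330040F15Rik (0.204), Adap1 (0.206) and Ms4a2 (0.225), with log2 fold changes of -1.58, -1.43, -1.44, -1.41 and -1.64. Ifit3b has near-identical copies, so its value is uncertain. With 4 libraries in 2 groups, nearness mostly says that a gene differed by a like amount between the groups.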
